A study of Drosophila melanogaster with 12 samples.

Results

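The expression of 10 genes that act in the Malpighian tubules, the renal organs of the fly, was measured. The mRNA came from whole male and female Drosophila melanogaster. These genes are called tubule genes below, although several of them also act in other organs. The genes were chosen for their role in uric acid breakdown, in ion and water transport or in hormone reception, and were found by symbol through their NCBI Gene identifiers. They are 10 of 15631 genes in the count tables, of which 15130 are listed for 10-day-old flies and 15261 for 30-day-old flies. All 10 passed the filter on low counts in every comparison.

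The white-eyed laboratory strain w1118 was used for all 4 groups, which were females and males aged 10 days and females and males aged 30 days. According to the methods of the study, the flies were mated, were separated by sex at the age of 3 days and were then kept on SY10 medium, a diet of sucrose and yeast. Each sample was 1 pool of 10 whole flies, and 3 samples from independent experiments were sequenced per group after poly(A) capture. No treatment and no transgene separated the groups. Sex and age were the only variables named in the sample labels, and the question was how these genes differed with each.

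The tubule secretes primary urine by moving ions across its wall, and water follows. Principal cells, the main cell type, drive cation secretion with a proton pump, take up potassium at their base through inward rectifier channels and a cotransporter, and carry the enzyme and peptide receptor measured here. Stellate cells, the smaller and less frequent type, carry the chloride conductance and the water channels, and respond to leucokinin, a diuretic neuropeptide. Several of these genes also act elsewhere, Ncc69 and ClC-a in glia and Lkr in neurons. In whole flies, fewer cells of a type and less RNA per cell cannot be told apart, nor can the organ a transcript came from.

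The libraries held 23097763 to 62924598 counts. Between 10219 and 11407 genes had at least 1 count in females and between 13090 and 14946 in males. Male replicate 2 at 30 days held the fewest counts and the most genes with a count. Female replicate 2 at 30 days was the lowest of its group for 8 of the 10 tubule genes, and their summed level was 48.2 CPM there (counts of a gene per 1000000 counts of the scaled library), against 131 and 110 CPM in the other two. The same library was also lowest of its group for the summed markers of midgut (213 CPM against 688 and 666 CPM) and of muscle (850 CPM against 1979 and 1414 CPM). So it was for photoreceptor (139 CPM against 274 and 607 CPM), neuron (57.2 CPM against 84.6 and 97.2 CPM), glia (10.6 CPM against 24.6 and 29.4 CPM) and fat body (312 CPM against 484 and 588 CPM). It was highest for the markers of ovary (1488 CPM against 1210 CPM in each of the others). The part of these differences in the results was not tested, and the calls that depend on 1 library are given beside each gene. The 30-day sex differences without female replicate 2 are given below.

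Uro, which encodes urate oxidase, the enzyme that breaks down uric acid, had the highest level per kilobase of exon in every group. Its mean was 15.4 ± 6.09 CPM per kb in females and 64.7 ± 17.9 CPM per kb in males at 10 days, and 29.7 ± 17.3 and 114 ± 17.8 CPM per kb at 30 days (SD, n = 3 in each case here and below). In no group did its range reach that of the next gene. Irk2 followed in females at 10 days at 7.25 ± 0.252 CPM per kb, above the range of ClC-a at 3.33 ± 0.662 CPM per kb. In males ClC-a and Irk2 stood next to Uro with overlapping ranges, at 30.2 ± 6.08 and 25.8 ± 1.64 CPM per kb at 10 days.

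The receptor genes and Irk1 were the lowest 3 genes in every group. Lkr was the lowest in females, at 0.123 ± 0.036 CPM per kb at 10 days and 0.147 ± 0.171 CPM per kb at 30 days. Irk1 was the lowest in males, at 0.822 ± 0.653 and 0.397 ± 0.281 CPM per kb. Every pair of neighbours in this order among Irk3, Drip, Ncc69 and SecCl overlapped in all 4 groups, so these steps of the order were not resolved. In females at 30 days, the ranges of all neighbours below Uro overlapped.

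**Figure D1:**
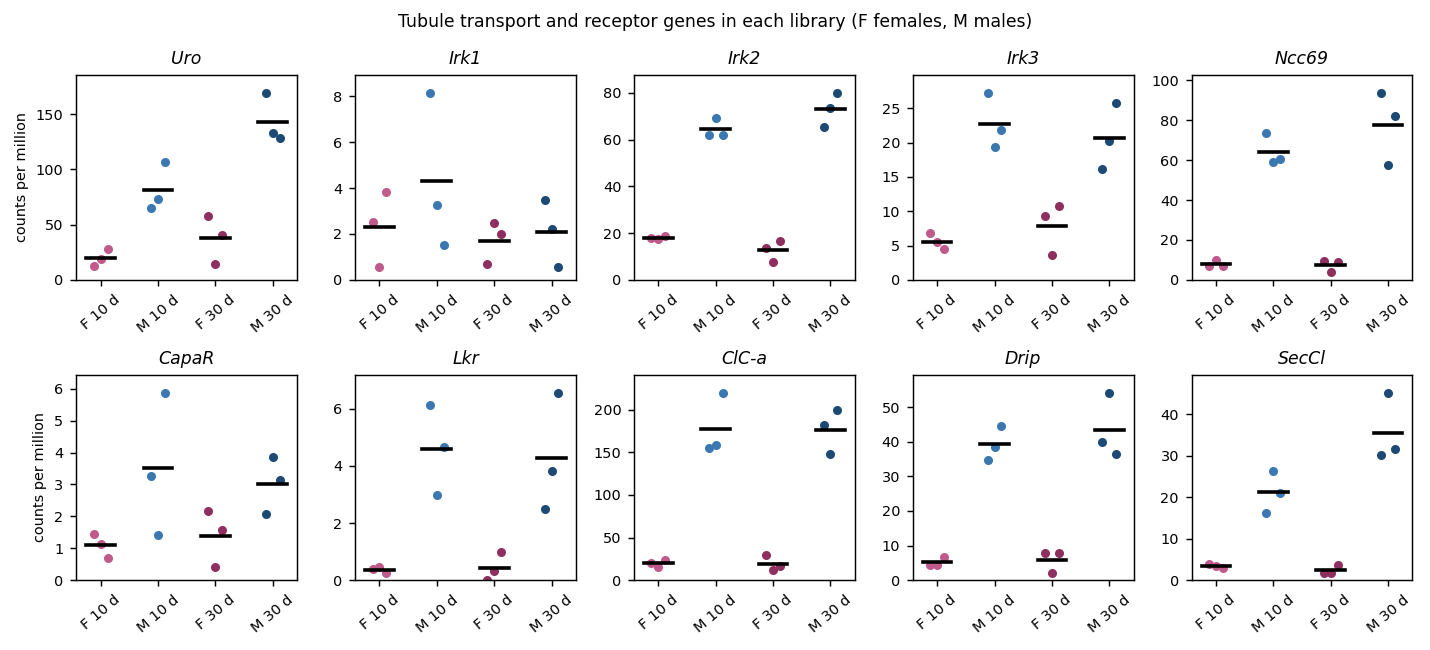
Level of each of the 10 tubule genes in CPM (linear vertical axis from 0, a scale of its own for each gene) in every library, with points for the 3 libraries of a group and a line for their mean; F stands for females and M for males at 10 and 30 days (d). Points of the sexes are apart at both ages for Uro, Irk2, Irk3, Ncc69, Lkr, ClC-a, Drip and SecCl, and overlap at both ages for Irk1 and CapaR.

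Males were compared with females at each age with edgeR's quasi-likelihood test and Benjamini-Hochberg adjustment over all tested genes, at a threshold of 0.05. Among the principal cell genes, Uro was higher in males. Its level in females at 10 days was 12.2, 18.8 and 27.5 CPM in replicates 1 to 3, and in males it was 65.0, 72.8 and 107 CPM. Every male library was above every female library, and the log2 fold change was 2.00 ± 0.33 (standard error, as for all log2 fold changes below; adjusted p = 0.00112). At 30 days the values were 57.5, 14.1 and 40.8 CPM in females and 169, 133 and 128 CPM in males. The sexes again did not overlap, although the female libraries were spread widely, and the log2 fold change was 1.91 ± 0.45 (adjusted p = 0.00485).

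Irk2, an inward rectifier potassium channel, varied least, relative to its mean, among the 10-day libraries of each sex. Females had 17.9, 17.6 and 18.8 CPM and males 62.1, 69.2 and 62.1 CPM, a log2 fold change of 1.75 ± 0.14 (adjusted p = 3.63e-05). The 30-day females had 13.5, 7.61 and 16.7 CPM and the males 65.4, 73.4 and 79.8 CPM. The lowest male library was well above the highest female library, and the log2 fold change was 2.50 ± 0.31 (adjusted p = 0.0002).

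Irk3, a second channel of this family that is largely restricted to the tubule, was measured at lower levels. At 10 days females had 6.77, 5.47 and 4.52 CPM and males 27.2, 19.3 and 21.8 CPM, and the log2 fold change was 1.95 ± 0.29 (adjusted p = 0.000638). In 30-day flies, females had 9.25, 3.60 and 10.7 CPM and males 16.2, 20.2 and 25.7 CPM. The sexes did not overlap, but the distance between the highest female and the lowest male library was smaller than at 10 days, and the log2 fold change was 1.37 ± 0.46 (adjusted p = 0.0256). This call was lost without female replicate 1 (1.42, adjusted p = 0.0569), without male replicate 2 (1.38, adjusted p = 0.0575) and without male replicate 3 (1.18, adjusted p = 0.092), and when libraries were scaled by total counts (1.08, adjusted p = 0.0671). Without female replicate 2 the gene stayed called, with the lowest estimate of all libraries left out in turn (0.96, adjusted p = 0.0434). In the gene annotation, 10.8% of the exon bases of Irk3 are shared with Grip71 on the opposite strand, and whether reads were counted by strand is not given in the sources used here.

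Irk1, the third channel of the family, did not pass the test at either age. Females had 2.53, 0.571 and 3.83 CPM at 10 days and males 8.13, 3.28 and 1.52 CPM, and the log2 fold change of 0.88 ± 0.86 was about as large as its standard error (adjusted p = 0.368). It was 0.06 without male replicate 1, 0.44 without female replicate 2 and 1.40 without female replicate 3. In 30-day females the gene was at 0.672, 2.46 and 1.98 CPM and in males at 3.49, 2.20 and 0.555 CPM, with 0.23 ± 0.89 (adjusted p = 0.816). Libraries of both sexes overlapped at both ages. The counts of Irk1 are uncertain, since 61.0% of its exon bases are shared with CG46310 on the same strand, a gene that was not found in the count tables.

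Ncc69, a cotransporter of sodium, potassium and chloride that supplies potassium at the base of principal cells, showed the largest sex difference of the principal cell genes at both ages. At 10 days females had 7.06, 9.86 and 6.81 CPM and males 73.4, 59.2 and 60.4 CPM, a log2 fold change of 2.93 ± 0.26 (adjusted p = 5.54e-05). At 30 days females had 9.25, 3.98 and 9.06 CPM and males 93.6, 57.8 and 82.1 CPM. The log2 fold change was 3.36 ± 0.38 (adjusted p = 0.000128), and the lowest male library was far above all female libraries at both ages.

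CapaR, the receptor of the capa peptides that regulate secretion by principal cells, did not pass the test at either age. At 10 days females had 1.46, 1.14 and 0.695 CPM and males 3.26, 1.42 and 5.85 CPM, with a log2 fold change of 1.59 ± 0.71 (adjusted p = 0.0747). Male replicate 2 lay within the female range, and without it the gene was called higher in males (2.05, adjusted p = 0.0279), as it was with DESeq2 (1.80, adjusted p = 0.0225) and with DESeq2's size factors in edgeR (adjusted p = 0.0474). At 30 days females had 2.17, 0.426 and 1.57 CPM and males 2.08, 3.86 and 3.13 CPM, with overlapping groups and 1.09 ± 0.77 (adjusted p = 0.22). Between 26 and 246 counts per library lay behind these values, and the 10-day male libraries alone ranged from 51 to 246 counts.

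Among the stellate cell genes, Lkr, the leucokinin receptor, had the fewest counts. At 10 days it had 0.387, 0.450 and 0.244 CPM in females, from 13 to 26 counts, and 6.13, 2.98 and 4.66 CPM in males, from 107 to 229 counts. The sexes did not overlap, and the log2 fold change of 3.57 ± 0.63 was the largest of the 10 genes at this age (adjusted p = 0.00153). At 30 days females had 0, 0.311 and 0.979 CPM and males 2.49, 3.81 and 6.54 CPM. The 0 counts of female replicate 1 allow a level of up to 0.0672 CPM (3 counts, counting error only).

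The sexes did not overlap for Lkr at 30 days either, but the log2 fold change of 3.27 ± 1.35 did not pass the test (adjusted p = 0.0543). It passed without female replicate 1 (2.62, adjusted p = 0.0366), without female replicate 3 (4.68, adjusted p = 0.03), and with all libraries in 1 fit (3.31, adjusted p = 0.0213). It also passed with DESeq2 (3.46, adjusted p = 0.0152) and limma-voom (4.68, adjusted p = 0.0279). Over all libraries left out in turn its adjusted p ranged from 0.03 to 0.141.

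ClC-a, a chloride channel of stellate cells, had the highest level of the stellate genes. At 10 days females had 19.8, 15.6 and 23.4 CPM and males 155, 159 and 219 CPM, a log2 fold change of 3.11 ± 0.19 (adjusted p = 1.27e-05). The levels at 30 days were 29.5, 12 and 16.9 CPM in females and 182, 148 and 200 CPM in males, with 3.15 ± 0.34 (adjusted p = 0.000101). Males were thus 8.65-fold and 8.85-fold higher on average in the fit, with no overlap.

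SecCl, a ligand-gated chloride channel subunit of stellate cells, had the largest sex difference at 30 days in this fit, although Lkr exceeded it with limma-voom (4.68 against 3.89), with the replicate block (4.25 against 3.93) and without female replicate 3 (4.68 against 4.32). At 10 days females had 4.01, 3.49 and 2.87 CPM and males 16.2, 26.3 and 21.0 CPM, a log2 fold change of 2.52 ± 0.31 (adjusted p = 0.00025). Females at 30 days had 1.75, 1.69 and 3.71 CPM and males 30.1, 45.0 and 31.5 CPM. The groups lay further apart than at 10 days, with a log2 fold change of 3.86 ± 0.44 (adjusted p = 0.000125).

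Drip, a water channel of the aquaporin family, was also higher in males at both ages. At 10 days females had 4.45, 4.46 and 6.72 CPM and males 34.6, 38.5 and 44.5 CPM, a log2 fold change of 2.84 ± 0.23 (adjusted p = 4.08e-05). At 30 days females had 7.88, 2.05 and 7.81 CPM and males 39.9, 53.9 and 36.4 CPM, with 2.85 ± 0.52 (adjusted p = 0.00137). The fold in the fit was 7.18 at 10 days and 7.19 at 30 days. With each library left out in turn, the 30-day log2 fold change ranged from 2.37 (without female replicate 2) to 3.09.

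At 10 days, 8 of the 10 genes were called higher in males and 0 lower (0 with an unadjusted p under 0.05 that were lower, and 0 lower with DESeq2 and limma-voom). Of all 13334 genes tested, 46.8% were called higher and 31.6% lower in males. The median log2 fold change was 2.26 over the tubule genes and 1.06 over all tested genes. In 8 of the 10, every male library was above every female library, against 52.0% of all tested genes.

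At 30 days, 7 of 10 were called higher in males and 0 lower, the exceptions being Irk1, CapaR and Lkr. DESeq2 and limma-voom each called 8 higher and 0 lower. Without female replicate 2, the library with the lowest summed level, edgeR called 7 higher and 0 lower. Log2 fold changes were then 1.47 (Uro), 2.18 (Irk2), 0.96 (Irk3), 3.00 (Ncc69) and 0.60 (CapaR). They were 2.99 (Lkr), 2.86 (ClC-a), 2.37 (Drip) and 3.59 (SecCl), so all of these were smaller than with the library. That of Irk1 was larger, at 0.52. Of 13013 genes tested, 48.4% were called higher and 30.4% lower. The median was 2.67 over the tubule genes and 1.32 over all genes, and in 8 of the 10 the sexes did not overlap, against 53.2% of all genes. Median log2 fold changes were 1.85 at 10 days and 1.64 at 30 days over the 6 principal cell genes and 2.98 and 3.21 over the 4 stellate cell genes.

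**Figure D2:**
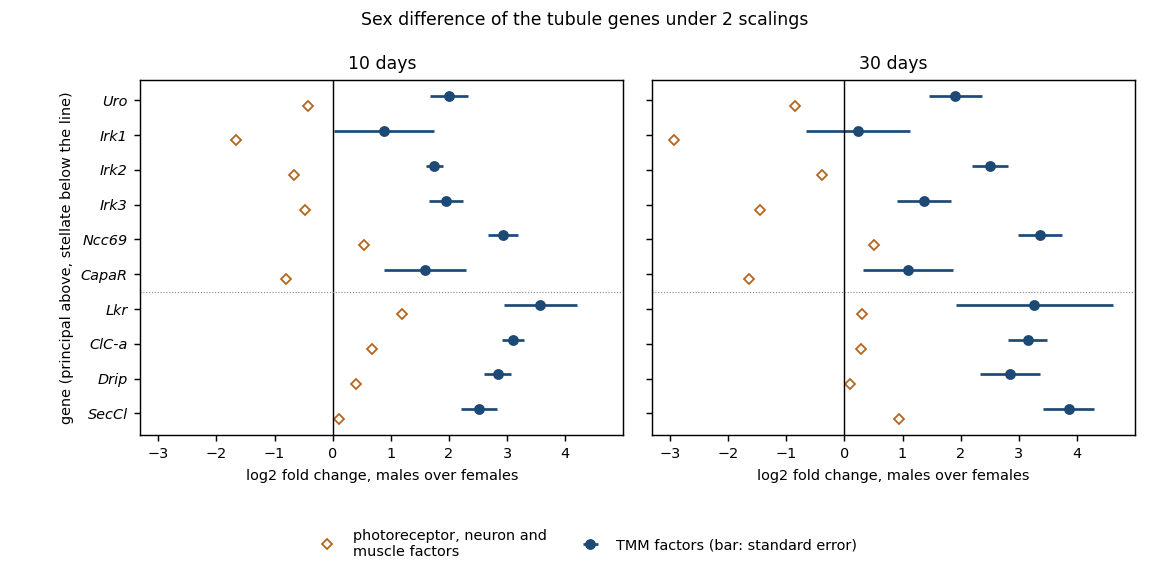
Log2 fold change of males over females for each tubule gene at 10 days (left) and 30 days (right). Filled circles with standard errors are the values with TMM factors, and open diamonds those with factors from photoreceptor, neuron and muscle genes, under which all 4 stellate genes stay above 0 and 5 of the 6 principal genes fall below it.

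The direction of these differences depended on what the libraries were scaled to. The TMM factors used above are computed from a trimmed set of all genes, which in whole flies includes transcripts of the reproductive organs, and the median of all genes with them was 1.06 at 10 days and 1.32 at 30 days. With factors computed from photoreceptor, neuron and muscle genes instead, the median of all genes moved by -2.42 at 10 days and by -2.91 at 30 days. The split of all calls moved with it, from 59.7% higher in males to 32.0% at 10 days and from 61.5% to 31.4% at 30 days. These factors were summed counts, in which photoreceptor and muscle genes weighed most. In 10-day males their median sums were 8165 and 4931 CPM, against 1370 CPM for neuron genes. The lists did not move alike under the factors. At 30 days 6 of 8 photoreceptor and 6 of 10 neuron genes were called higher in males, and 3 of 9 muscle genes lower. At 10 days 2 photoreceptor, 4 neuron and 1 muscle gene were called higher, and 4 muscle genes lower.

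Under these factors, 1 tubule gene was called higher and 1 lower at 10 days, against 23.9% and 50.8% of all genes. They were Ncc69 (0.54, adjusted p = 0.045) and Irk2 (-0.67, adjusted p = 0.0103). At 30 days 0 were called higher and 3 lower, against 23.2% and 50.7% of all genes, and the 3 were Irk1 (-2.93, adjusted p = 0.013), Irk3 (-1.45, adjusted p = 0.0087) and CapaR (-1.64, adjusted p = 0.0461). Uro turned to -0.43 and -0.85, while the log2 fold changes of Lkr, ClC-a, Drip and SecCl stayed between 0.11 and 1.19 at 10 days and between 0.09 and 0.94 at 30 days, with none of the 4 called.

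Markers of other organs moved with sex as well. At 10 days, 8 of 8 photoreceptor, 10 of 10 neuron, 4 of 4 glia, 7 of 7 midgut and 7 of 9 muscle genes were called higher in males. Their median log2 fold changes were 2.92, 2.96, 2.41, 2.22 and 1.74. Of all genes, 46.8% were called higher at this age. The 3 fat body genes tested had a median of 0.90, with 2 called higher and 1 lower. At 30 days the same 5 lists had medians of 4.14, 4.01, 3.16, 3.37 and 2.10. The 4 fat body genes tested then, with Lsp2 added, ranged from -1.23 to 11.47 with a median of 1.73. The median of the stellate genes, 2.98 at 10 days, was close to those of neuron and photoreceptor, with overlapping ranges, and above glia, midgut, muscle and fat body. At 30 days, with 3.21, it was below photoreceptor, neuron and midgut and close to glia. The median of the principal genes, 1.85 at 10 days, was above muscle and fat body. At 30 days, with 1.64, it was below the same 5 lists and close to fat body. The summed neuron markers ranged from 163 to 176 CPM in females and from 1270 to 1454 CPM in males at 10 days, and from 57.2 to 97.2 CPM and 1029 to 1709 CPM at 30 days.

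The summed glia markers ranged from 28.2 to 33.7 CPM in females and from 152 to 188 CPM in males at 10 days, and from 10.6 to 29.4 CPM and 134 to 199 CPM at 30 days. The part of these tissues in the values of the tubule genes was not tested. Of the ovary list, 8 of 9 genes were called lower in males at 10 days, against 31.6% of all genes. Its sum was 2827 to 3830 CPM in 10-day females and 37.5 to 56.6 CPM in 10-day males.

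Ratios between tubule genes within a library do not depend on the scaling of that library. They were chosen after their values were seen and are given as a description. The level of ClC-a per kilobase relative to Uro was 0.348, 0.178 and 0.182 in females and 0.513, 0.467 and 0.437 in males at 10 days. At 30 days it was 0.110, 0.183 and 0.0887 in females and 0.230, 0.238 and 0.335 in males. ClC-a was thus higher relative to Uro in males at both ages, with no overlap of the sexes. For SecCl, the other stellate chloride channel, the ratio to Uro overlapped at 10 days, at 0.0586 to 0.185 in females and 0.109 to 0.203 in males. At 30 days it did not, at 0.0171 to 0.0671 and 0.0997 to 0.189.

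The ratio of Ncc69 to Irk2, both of principal cells, also separated the sexes. It ranged from 0.179 to 0.277 in females and from 0.424 to 0.585 in males at 10 days, and from 0.259 to 0.340 and from 0.390 to 0.708 at 30 days. Irk3 relative to Irk2 was 0.819, 0.564 and 0.762 in 30-day females and between 0.287 and 0.522 in all other libraries. SecCl relative to ClC-a overlapped between the sexes at both ages, at 0.155 to 0.576 in 30-day females and 0.412 to 0.796 in 30-day males.

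**Figure D3:**
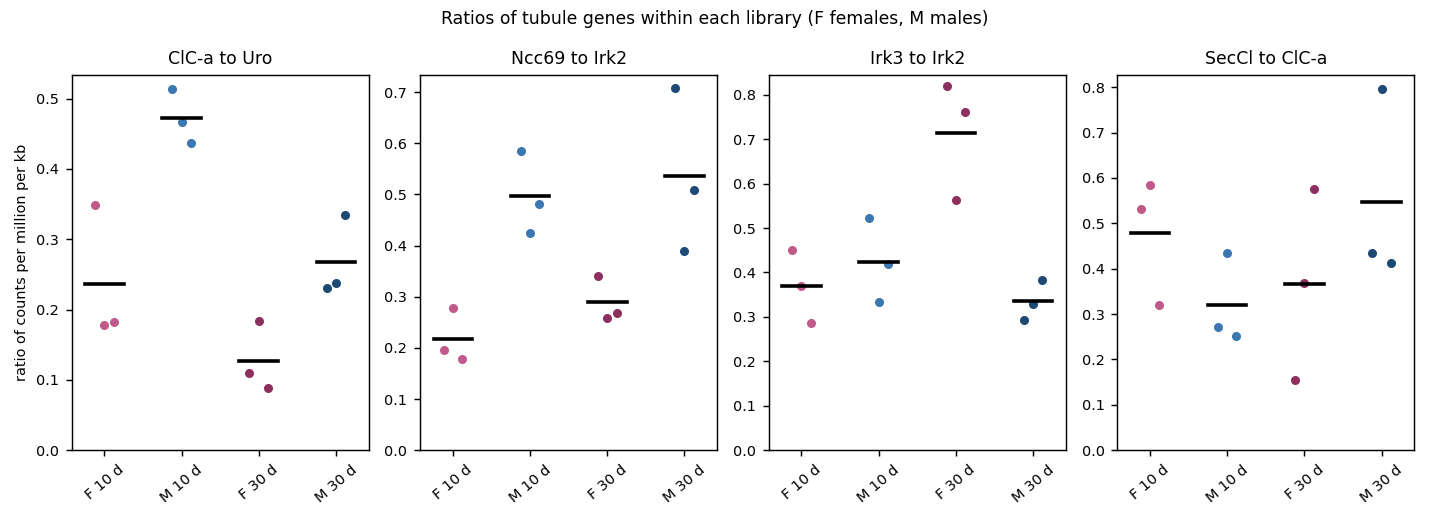
Ratio of the levels per kilobase (CPM per kb, linear vertical axes from 0) of 4 pairs of tubule genes within each library, with points for the 3 libraries of a group, a line for their mean, F for females and M for males at 10 and 30 days (d). ClC-a to Uro and Ncc69 to Irk2 lie higher in males than in females at each age without overlap, Irk3 to Irk2 is highest in the 3 libraries of 30-day females, and SecCl to ClC-a overlaps.

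Further genes of ion and water transport, of water balance signals, and of tubule identity and solute transport were taken from 3 lists. The organ that each of their transcripts came from cannot be told in whole flies. Of 23 further ion and water transport genes, 22 were tested. In males at 10 days, 13 were called higher and 6 lower, against 46.8% and 31.6% of all genes. Their median was 1.15. The genes with the smallest p at 10 days were nrv2, a subunit of the sodium pump, at 13.4 ± 0.511 CPM in females and 268 ± 18.0 CPM in males (log2 fold change 4.25 ± 0.11, adjusted p = 4.05e-06), and Prip, another aquaporin, at 354 ± 36.6 and 30.0 ± 5.95 CPM (-3.64 ± 0.22, adjusted p = 1.25e-05). Drip and Prip, both water channels, thus differed in opposite directions between the sexes. With the photoreceptor, neuron and muscle factors, 6 of the list were called higher and 12 lower at 10 days, against 23.9% and 50.8% of all genes.

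At 30 days 12 of the ion and water transport genes were called higher and 6 lower, against 48.4% and 30.4% of all genes. Their median was 1.04. Prip was again lower in males (-3.19 ± 0.19, adjusted p = 1.12e-05). Eglp1, an entomoglyceroporin, had 0 counts in all 3 female libraries and 79.3 ± 13.8 CPM in males, which is at least 1161-fold higher than the level that 3 counts per library allow.

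Of 10 genes for water balance signals, their synthesis and their receptors, 9 were tested. All 9 were called higher in males at both ages, against 46.8% of all genes at 10 days and 48.4% at 30 days. Their medians were 2.84 and 3.20. The neuron list, with 10 of 10 called higher at both ages, had medians of 2.96 and 4.01. Dh31, a diuretic hormone precursor, had 6.14 ± 1.21 CPM in females and 61.0 ± 6.72 CPM in males at 10 days (3.24 ± 0.19, adjusted p = 1.25e-05) and a log2 fold change of 4.55 ± 0.34 at 30 days (adjusted p = 2.18e-05). Dh44, another such precursor, had 2.84 ± 0.27 at 10 days (adjusted p = 7.26e-05), and ITP, which encodes the ion transport peptide, had 3.20 ± 0.33 at 30 days (adjusted p = 7.83e-05). With the photoreceptor, neuron and muscle factors, 1 of the signal list was called higher and 1 lower at 10 days, against 23.9% and 50.8% of all genes. At 30 days 2 were called higher and 0 lower, against 23.2% and 50.7%.

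Of 10 genes for tubule identity and solute transport, 8 were called higher and 1 lower at 10 days, against 46.8% and 31.6% of all genes. At 30 days 6 were called higher and 1 lower, against 48.4% and 30.4%. The medians of the list were 1.89 and 1.67. Alp4, the alkaline phosphatase of the tubule, had 41.4 ± 5.52 CPM in females and 255 ± 20.2 CPM in males at 10 days (2.55 ± 0.14, adjusted p = 1.04e-05), and tio, which encodes a transcription factor, had 4.54 ± 0.28 (adjusted p = 1.43e-05). At 30 days the organic anion transporter gene Oatp58Dc was higher in males (2.64 ± 0.31, adjusted p = 0.000155). Prestin, an anion transporter, was lower in males, at 117 ± 8.49 CPM in females and 31.4 ± 1.86 CPM in males (-1.94 ± 0.17, adjusted p = 4.24e-05). With the photoreceptor, neuron and muscle factors, 1 of this list was called higher and 4 lower at 10 days, against 23.9% and 50.8% of all genes. At 30 days 0 were called higher and 5 lower, against 23.2% and 50.7%.

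No tubule gene was called between 10 and 30 days in either sex. In males 0 of 10 were called by edgeR, where 0.452% of 14146 genes were called in either direction. There were 0 with an unadjusted p under 0.05 by edgeR, against 1711 of all 14146 genes. There were 0 calls with DESeq2 and 0 with limma-voom, by which 2 had an unadjusted p under 0.05. The median log2 fold change of 30 over 10 days was 0.07 over the 10 genes and -0.08 over all genes.

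In males, the values of Uro and SecCl nevertheless did not overlap between the ages. Uro was at 65.0 to 107 CPM at 10 days and 128 to 169 CPM at 30 days (0.81 ± 0.43, adjusted p = 0.496 by edgeR). SecCl was at 16.2 to 26.3 CPM and then 30.1 to 45.0 CPM (0.75 ± 0.35, adjusted p = 0.432). The other log2 fold changes in males lay between -1.05 (Irk1) and 0.28 (Ncc69), with overlapping groups. ClC-a had -0.01 ± 0.29, with means of 178 ± 35.8 and 177 ± 26.5 CPM.

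In females 0 of 10 were called by edgeR, where 0.325% of all genes were called. There were 0 with an unadjusted p under 0.05 by edgeR, against 1925 of all 14146 genes. There were 0 calls with DESeq2 and limma-voom, by each of which 1 had an unadjusted p under 0.05. The median was 0.08 over the 10 genes and 0.00 over all genes. Irk2 was lower in every 30-day library than in every 10-day library, with 17.6 to 18.8 CPM at 10 days and 7.61 to 16.7 CPM at 30 days (-0.53 ± 0.24, adjusted p = 0.372 by edgeR). Uro had 0.94 ± 0.44 (adjusted p = 0.373), with 14.1 CPM in female replicate 2 at 30 days lying within the 10-day range.

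The other log2 fold changes in females lay between -0.54 (SecCl) and 0.49 (Irk3). The photoreceptor and neuron markers stood lower in females at 30 days, with medians of -1.38 and -1.13. Of these, 0 of 8 and 1 of 10 were called by edgeR, and 6 and 8 had an unadjusted p under 0.05, against 1925 of all 14146 genes. The 4 glia markers had a median of -0.72 and the 7 midgut markers one of 0.22. Under the photoreceptor, neuron and muscle factors the median of all genes in females moved by 0.51 and that of the tubule genes was 0.49, with 0 called.

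**Figure D4:**
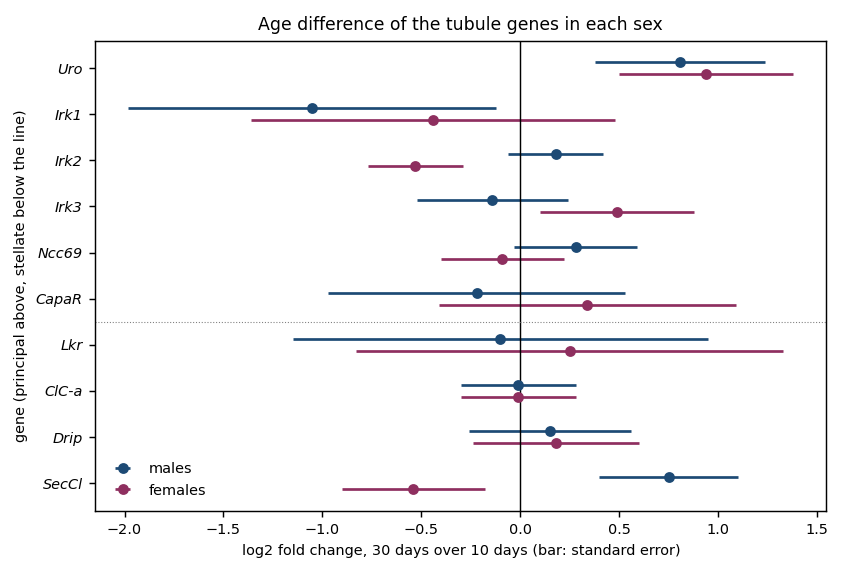
Log2 fold change of 30 over 10 days for each tubule gene in males and in females, with standard errors. Uro lies above 0 in both sexes (0.81 and 0.94), SecCl lies above 0 in males (0.75) and below 0 in females (-0.54), and none of the 10 genes was called in either sex.

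A change of the sex difference between 10 and 30 days was called for 0 of the 10 genes by edgeR, which called 2 of all 14146 genes (0.0141%). DESeq2 and limma-voom also called 0 of the 10, with an unadjusted p under 0.05 for 1 and 2 of them. By edgeR SecCl alone had an unadjusted p under 0.05, with a log2 change of 1.29 ± 0.50 (adjusted p = 0.299). Its estimate ranged from 1.09 to 1.91 with each library left out in turn, and its adjusted p from 0.0864 to 0.456. With the photoreceptor, neuron and muscle factors it was 0.83 (adjusted p = 0.526), and 0 of the 10 genes then had an unadjusted p under 0.05. With TMM factors, the photoreceptor and neuron markers had medians of 1.21 and 1.12 in the same comparison. By edgeR, 4 of 8 and 7 of 10 had an unadjusted p under 0.05, against 1837 of all 14146 genes, and 0 were called. The part of these markers in the value of SecCl was not tested. Irk2 had 0.70 ± 0.34 (adjusted p = 0.418) and the remaining 8 genes lay between -0.63 and 0.37. The standard errors of 0.34 to 1.51 set how small a change could be resolved.

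These 3 lists held no gene called with age or for a change of the sex difference by edgeR. In males, 3 of 22 ion and water transport genes, 2 of 9 signal genes and 1 of 10 identity and solute genes had an unadjusted p under 0.05. In females there were 6, 2 and 2. Of all 14146 genes, 1711 had such a p by edgeR in males and 1925 in females. None of the following, the genes of smallest p in each list, was called.

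In males they were the sodium pump subunits nrv2 (-0.64 ± 0.20, adjusted p = 0.209) and nrv1 (0.48 ± 0.15, adjusted p = 0.212), and Capa, the precursor of the ligands of CapaR (1.21 ± 0.34, adjusted p = 0.167). Capa had 30.7 ± 5.67 CPM in 10-day males and 71.1 ± 7.37 CPM in 30-day males. The others were Dh31 (0.64 ± 0.26), the zinc transporter ZnT35C (-0.55 ± 0.13, adjusted p = 0.11) and tio (-0.65 ± 0.31).

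In females they were nrv3, also a subunit of the sodium pump (-1.46 ± 0.30, adjusted p = 0.0673), Eglp4 (-1.24 ± 0.35, adjusted p = 0.168) and ct, which encodes a transcription factor (-1.37 ± 0.31, adjusted p = 0.106). The others were ZnT35C (-0.41 ± 0.13), Dh31 (-0.64 ± 0.27) and Dh44 (-1.21 ± 0.51). For a change of the sex difference they were the kinase gene fray (-0.76 ± 0.23), nrv3 (1.21 ± 0.41), Dh31 (1.28 ± 0.37), Dh44 (1.84 ± 0.70), tio (-1.20 ± 0.45) and Prestin (-0.60 ± 0.27), with adjusted p from 0.194 to 0.37.

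The pattern of Uro over the 12 libraries was most like that of CG30026, List and CG11044 among 14145 other genes, with root mean square differences of centred log2 CPM of 0.29, 0.34 and 0.35. List was at 4.39 ± 1.80 CPM in females and 21.8 ± 4.19 CPM in males at 10 days, and at 6.49 ± 3.63 and 34.0 ± 6.94 CPM at 30 days. SecCl was most like CG9270, spab and bru3, with 0.31, 0.31 and 0.35. The closest tubule gene to Uro was Drip (0.63, rank 391 of the 14145 genes). That to SecCl was Ncc69 (0.52, rank 145), so many other genes were closer in both cases. The 12 libraries differ in sex, age and depth, and the part of each in this likeness was not tested.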

How the data were processed

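The authors deposited gene count tables for 10 and for 30 days, with whole-number counts per NCBI Gene identifier. Per the labels and the methods of the study, poly(A) RNA was read as 150 bp pairs. The aligner, counter, genome build and strand setting are not given in the sources used here. Another 36 columns of per-sample values were not used. Short tables of FPKM values and of the authors' own fold changes and p-values were not used. In one short table the first and second 30-day male columns are exchanged relative to the count tables, whose headers were followed. Both tables were joined by identifier, and a gene listed at 1 age only was given 0 counts at the other. Symbols came from the RefSeq table for 15618 of 15631 genes, and exon lengths and overlaps from the BDGP6.54 annotation.

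Counts were tested with edgeR 4.0.16 (R 4.3.3), glmQLFit and glmQLFTest, after filterByExpr (minimum count 10, total 15) and TMM scaling, with Benjamini-Hochberg adjustment over all tested genes and a threshold of 0.05. Sex was tested in the 6 libraries of each age and age in all 12 libraries in 4 groups. CPM used the TMM factors of 12 libraries. The test was tested on simulated data. Replicates of a group differed far beyond counting noise (chi-square per degree of freedom 65.0 to 364). P-values set the difference between groups against the spread between these samples, which were pools of 10 flies. Libraries of 23097763 to 62924598 counts put Lkr at 0 to 236 counts.

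Alternatives were DESeq2 1.42.0, limma-voom (limma 3.58.1), DESeq2's size factors, total counts, no filter, factors from somatic marker genes (photoreceptor, neuron, muscle), an added fold threshold, a replicate block, all libraries in 1 fit and each library left out. The members, lists and alternatives were chosen with earlier results of these data known. Named were all 10 members, the 2 genes of smallest p in each list and comparison, and the 3 genes most like Uro and SecCl. No sequences are shown and no coordinates are given.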

Additional observations from a re-analysis of the deposited data

How the results depend on the processing

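The counts of tubule genes called by sex stayed within 1.5 times under all alternatives except the factors from photoreceptor, neuron and muscle genes. Those gave 1 higher and 1 lower at 10 days and 0 higher and 3 lower at 30 days. With the replicate block, 8 were called higher at 10 days, 7 at 30 days and 0 with age. Libraries of the same number did not deviate together (correlations of -0.09 to 0.05 over genes). This cannot show whether the same number stands for the same experiment, which is not given in the sources used here. The cause of the reversals below was not tested. Apart from sex differences under those factors, each value that reversed had been smaller than its standard error.

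With those factors the sex difference turned to -0.43 (Uro), -1.66 (Irk1), -0.67 (Irk2), -0.48 (Irk3) and -0.81 (CapaR) at 10 days and to -0.85, -2.93, -0.38, -1.45 and -1.64 at 30 days. The age difference turned to 0.05 for ClC-a in males and, in females, to 0.31 (Irk1), 0.37 (Ncc69) and 0.44 (ClC-a). The change of the sex difference turned to -0.04 (Ncc69) and -0.39 (ClC-a). With total counts, Irk1 at 30 days turned to -0.01, ClC-a to 0.03 in males and 0.08 in females with age, and its change of the sex difference to -0.06. DESeq2 and its size factors in edgeR each turned ClC-a to 0.01 in females and to -0.02 for the change of the sex difference. Limma-voom turned ClC-a to 0.01 in males, and CapaR to -0.01, Lkr to -1.21 and Drip to -0.17 in females. It turned the change of the sex difference to 0.09 (Uro), 1.05 (Lkr) and 0.24 (Drip). The replicate block turned Lkr to -0.23 in females with age and Drip to 0.05 for the change of the sex difference.

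With each library left out in turn, Irk1 at 30 days ranged from -0.36 to 0.68. The age difference in males ranged from -0.32 to 0.01 (Irk3), -0.59 to 0.37 (CapaR), -0.54 to 0.18 (Lkr), -0.10 to 0.17 (ClC-a) and -0.04 to 0.26 (Drip). In females it ranged from -0.86 to 0.11 (Irk1), -0.36 to 0.15 (Ncc69), -0.15 to 0.70 (CapaR), -1.23 to 0.81 (Lkr), -0.44 to 0.20 (ClC-a) and -0.15 to 0.56 (Drip). The change of the sex difference ranged from -0.41 to 0.38 (Uro), -1.21 to 0.23 (Irk1), -0.93 to 0.03 (CapaR), -0.84 to 1.20 (Lkr), -0.13 to 0.50 (ClC-a) and -0.34 to 0.37 (Drip).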
